A study of Rattus norvegicus with 21 samples.

Results

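The livers of 3 male Sprague-Dawley rats given piperonyl butoxide (PBO) at 1500 mg/kg by mouth for 7 days were compared with the livers of 3 male rats of the same strain given the methyl cellulose vehicle alone, 0 mg/kg of PBO, by the same route and for as long. These 6 arrays, chosen by the dose that each sample's title gives for the PBO study, were part of 21 in the whole series. The remaining PBO arrays came from rats at 500 and 1000 mg/kg, 3 at each dose, and the other samples belonged to a feeding study of dammar resin that is not used here. Every array held the liver RNA of 1 animal, the labels describe the replicates as biological, and no age of the animals is stated there. The labels state no genetic change in either group, and the PBO dose was the labelled difference between them.

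PBO is an insecticide synergist that blocks the cytochromes P450 with which insects break insecticides down. In rodent liver it is known as an inducer of drug metabolising enzymes, which answer to receptors that sense foreign compounds, among them CAR, PXR and the aryl hydrocarbon receptor. Reactive metabolites can also release the factor NRF2, which switches on genes of glutathione supply, conjugation and protein turnover through a short promoter element.

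Of 31042 probe sets outside the array's controls, 18625 passed the filter on low signal and 3228 had an adjusted p under 0.05 in limma's test, 1504 higher (8.08%) and 1724 lower (9.26%) at 1500 mg/kg. Counted by gene, with 1 probe set per gene, 2119 of 10670 genes passed the threshold (19.9%), 1035 of them higher (9.7%) and 1084 lower (10.2%). A gene that passed is said below to have risen or fallen. At least a 2-fold change was found for 354 genes that rose and 409 that fell. Changes are differences of log2(MAS5 signal + 16), 1500 minus 0 mg/kg, a scale that compresses changes at low signal. Each stands with the standard error of the fit, for 3 animals per group, with the spread pooled over the 12 PBO arrays. Signals are given for replicates 1, 2 and 3 in that order. The median change of all genes tested was -0.06. Scaling each array to a common median would shift the changes up, by a median of 0.12 over the genes, so that changes of about that size have no settled direction.

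Albumin, the main secreted protein of hepatocytes, read 52466, 61872 and 54397 in PBO 1500 livers, against 44668, 51309 and 68712 in control livers. Of 9 hepatocyte markers tested, albumin included, 3 fell and none rose, with a median of -0.27 and medians of -0.29, -0.09 and -0.45 in dosed replicates 1, 2 and 3. Replicate 3 of the dosed animals stood apart from the other dosed livers. Its root mean square deviation from its group's mean was 0.495 on the log2 scale, against 0.355 and 0.368 for dosed replicates 1 and 2 and 0.276 to 0.304 for the controls. Among the 2119 called genes it was the dosed animal farthest from the control mean for 1386 (65.4%), replicate 1 for 358 and replicate 2 for 375. Many changes that rest on it are given with and without it. Counts of list members are for all animals unless stated, and several differ without it.

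Genes for protein breakdown had the greatest share of rises among the 49 gene lists. The proteasome is the barrel-shaped protease that degrades ubiquitin-tagged proteins, and its core is built from Psma and Psmb subunits while Psmc and Psmd subunits form the regulatory cap. Of 38 subunits and assembly factors tested, 31 rose and 1 fell, against 9.7% and 10.2% of all genes, and their median change was 0.88 against -0.06 for all genes. Without dosed replicate 3, 32 rose and 1 fell.

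Promoter sequence is shown for 3 proteasome subunits and 2 glutathione enzymes that rose and whose promoter window, 250 bases before to 50 after the start in RefSeq's annotation of the GRCr8 assembly, held the core of the antioxidant response element that NRF2 binds. The core was searched as TGACNNNGC on both strands and stands in capitals; on the opposite strand it appears as its reverse complement. These genes were chosen after their values were seen. Psmb5 lies at chr15:32047330-32047629 on the minus strand, Psmd1 at chr9:94157721-94158020 on the plus strand, Psmd3 at chr10:84139688-84139987 on the plus strand, Gsta3 at chr9:31154739-31155038 on the plus strand and Gpx2 at chr6:101229984-101230283 on the minus strand, each printed in the direction of its gene.
Psmb5: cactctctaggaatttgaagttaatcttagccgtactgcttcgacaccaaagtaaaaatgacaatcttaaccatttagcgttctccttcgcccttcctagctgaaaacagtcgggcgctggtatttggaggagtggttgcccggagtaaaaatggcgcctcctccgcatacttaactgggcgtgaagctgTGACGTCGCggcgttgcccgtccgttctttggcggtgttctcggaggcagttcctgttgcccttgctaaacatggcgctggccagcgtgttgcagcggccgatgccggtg
Psmd1: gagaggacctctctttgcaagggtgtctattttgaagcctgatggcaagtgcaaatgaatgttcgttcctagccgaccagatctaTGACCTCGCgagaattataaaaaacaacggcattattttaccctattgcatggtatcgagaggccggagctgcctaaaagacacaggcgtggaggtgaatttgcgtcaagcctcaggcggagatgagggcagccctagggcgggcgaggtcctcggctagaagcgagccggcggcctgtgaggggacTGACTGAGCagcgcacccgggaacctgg
Psmd3: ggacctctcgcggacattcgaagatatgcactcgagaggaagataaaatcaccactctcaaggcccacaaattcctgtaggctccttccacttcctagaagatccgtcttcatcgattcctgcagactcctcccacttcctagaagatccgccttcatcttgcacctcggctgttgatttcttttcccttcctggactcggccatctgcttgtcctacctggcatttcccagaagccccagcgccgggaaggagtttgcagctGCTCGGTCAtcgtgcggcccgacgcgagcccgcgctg
Gsta3: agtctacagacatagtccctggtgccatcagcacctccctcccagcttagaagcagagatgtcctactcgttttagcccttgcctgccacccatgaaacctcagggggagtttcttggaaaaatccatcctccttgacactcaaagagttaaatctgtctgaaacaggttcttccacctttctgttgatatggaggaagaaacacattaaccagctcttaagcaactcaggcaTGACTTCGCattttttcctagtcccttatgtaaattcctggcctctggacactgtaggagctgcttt
Gpx2: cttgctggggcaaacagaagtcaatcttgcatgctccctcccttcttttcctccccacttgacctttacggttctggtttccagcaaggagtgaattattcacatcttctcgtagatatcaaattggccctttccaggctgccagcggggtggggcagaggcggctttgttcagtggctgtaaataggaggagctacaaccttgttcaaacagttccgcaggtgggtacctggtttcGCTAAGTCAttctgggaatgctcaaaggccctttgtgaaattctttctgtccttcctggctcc
The core occurred in 3342 of 27457 promoter windows of the table (12.2%). It occurred in 5 of the 27 risen proteasome genes with a window (18.5%) and in 4 of the 21 risen genes of glutathione and thioredoxin supply and of the glutathione S-transferases (19%). A match of these letters is a description of the window, and no binding was measured.

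Psmb4, a subunit of the proteasome core, read 19052, 19269 and 22170 in PBO 1500 livers, against 7407, 8560 and 7474 in control livers. The 2 groups did not overlap and the dosed livers differed little from each other. Its change was 1.37 ± 0.11 (adjusted p = 6.36e-06). The core subunit Psmb3 read 16771, 14875 and 21278 in PBO 1500 livers, against 6310, 6026 and 6458 in control livers, a change of 1.48 ± 0.15 (adjusted p = 3.88e-05). Psma2, of the core's outer rings, read 12053, 12095 and 16789 in PBO 1500 livers, against 5802, 5566 and 5630 in control livers, a change of 1.25 ± 0.12 (adjusted p = 3.57e-05). In both genes dosed replicate 3 was the highest of the 6 livers. Psmd2, a scaffold of the cap, read 6264, 5904 and 8018 in PBO 1500 livers, against 2616, 2523 and 2762 in control livers (change 1.34 ± 0.13, adjusted p = 3.28e-05).

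Core and cap subunits thus both rose, and the summed signal of the list spanned 294270 to 381780 in PBO 1500 livers and 171220 to 177410 in control livers. The medians over the list were 0.71, 0.66 and 1.15 in dosed replicates 1, 2 and 3. Of the subunits whose promoters are shown above, Psmb5, which carries a catalytic site of the core, changed by 1.19 ± 0.15 (adjusted p = 0.000175), Psmd3 by 0.88 ± 0.18 (adjusted p = 0.00588) and Psmd1 by 0.63 ± 0.12 (adjusted p = 0.00347).

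The subunits of the immunoproteasome, which replace the standard catalytic subunits under interferon, did not follow. Psmb9 read 1756, 1726 and 1475 in PBO 1500 livers, against 2842, 2679 and 2626 in control livers, and was the member that fell (-0.71 ± 0.16, adjusted p = 0.00808). All 3 dosed livers lay below the controls. Psmb8 had a change of -0.62 ± 0.25 (adjusted p = 0.105) and Psmb10 of -0.12 ± 0.20 (adjusted p = 0.727), and neither passed the threshold. Both genes were named after their values were seen.

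**Figure D1:**
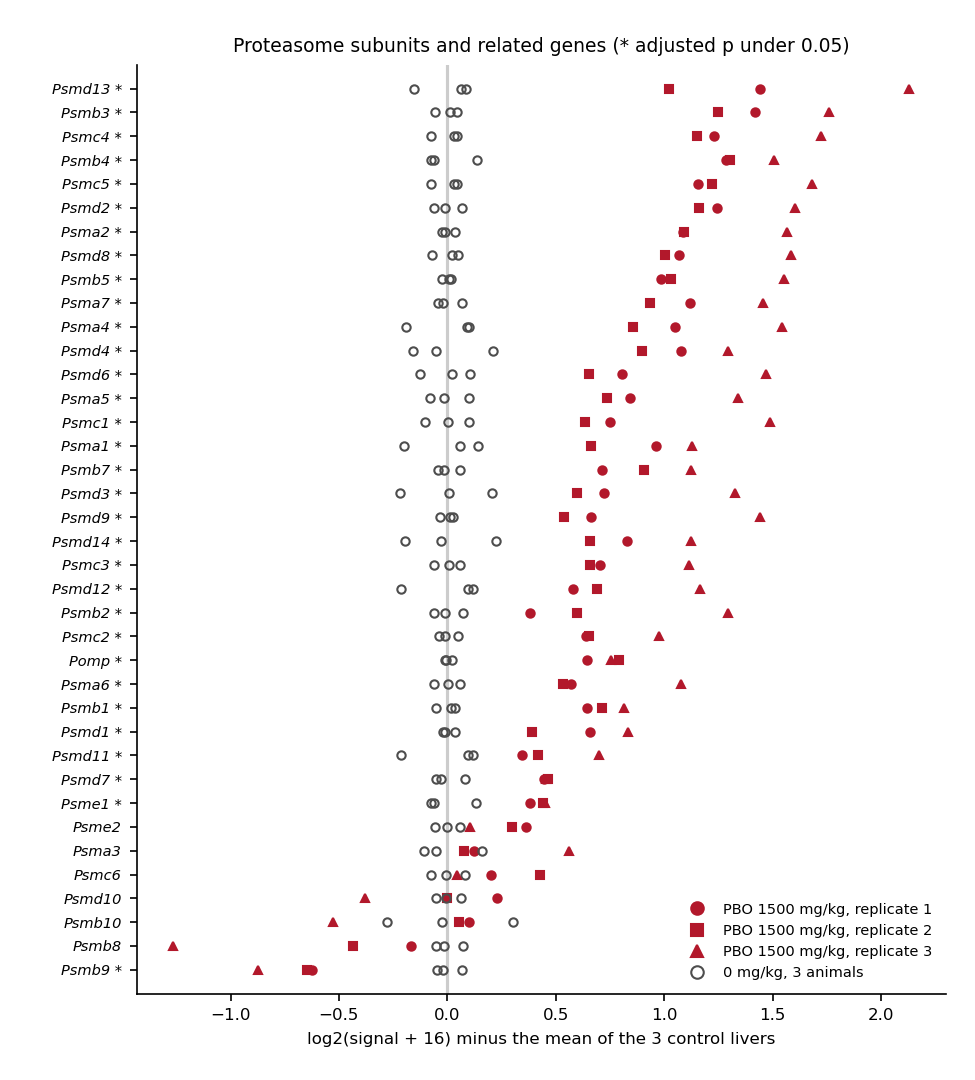
Proteasome subunits and related genes, 1 row per gene, with log2(signal + 16) minus the mean of the 3 control livers on the horizontal axis. Filled red symbols are the 3 dosed animals at 1500 mg/kg, with a triangle for replicate 3, open circles are the controls, and an asterisk marks the 32 genes past the threshold. Most rows lie right of 0, and Psmb9 and Psmb8 lie at the bottom left.

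Chaperones that fold proteins or shield them from clumping also rose, in 11 of 21 members tested, with none lower and a median of 0.42. The small heat shock protein Hspb1 read 2591, 1909 and 5398 in PBO 1500 livers, against 610, 603 and 413 in control livers. All dosed livers were above the controls and replicate 3 was the highest, with a change of 2.45 ± 0.33 (adjusted p = 0.000309). Smaller rises were found for Hspb8 (0.86 ± 0.14, adjusted p = 0.00113), for Ahsa1, an activator of HSP90 (0.84 ± 0.11, adjusted p = 0.000366), and for Cct8, a subunit of the chaperonin ring (0.68 ± 0.12, adjusted p = 0.00265). Of 27 genes of folding and stress in the endoplasmic reticulum, 2 rose (7.41%) and 2 fell (7.41%). These shares were near the 9.7% higher and 10.2% lower over all genes and are no result about the members.

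Glutathione and thioredoxin supply rose in 14 of 27 members, with 2 lower and a median of 0.48. Gsr, which regenerates reduced glutathione, read 2466, 2357 and 3641 in PBO 1500 livers, against 478, 464 and 573 in control livers. The lowest dosed liver lay far above the highest control, and the change was 2.42 ± 0.17 (adjusted p = 2.75e-06). Slc3a2, the heavy chain that carries amino acid transporters including the cystine carrier to the membrane, read 7394, 7869 and 14034 in PBO 1500 livers, against 2106, 2608 and 2484 in control livers (1.96 ± 0.22, adjusted p = 9.19e-05). Prdx4, a peroxiredoxin of the secretory pathway, went the other way (-0.80 ± 0.11, adjusted p = 0.000451). Cth, which makes cysteine from cystathionine, fell by 1.12 on the log2 scale (adjusted p = 0.0206), and by 0.64 without dosed replicate 3. Leaving out any 1 control ended the call (replicates 1, 2 and 3, adjusted p = 0.0685, 0.0527 and 0.0542).

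NADPH, the reducing agent used by Gsr, is supplied by 11 genes tested, of which 4 rose and 1 fell. Malic enzyme Me1 read 8378, 7434 and 5258 in PBO 1500 livers, against 1352, 1198 and 1466 in control livers (2.36 ± 0.17, adjusted p = 3.02e-06). Transketolase Tkt (0.72 ± 0.12), Pgd (0.54 ± 0.12) and Taldo1 (0.63 ± 0.15), enzymes of the pentose phosphate pathway, changed less.

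The 15 largest rises and 15 largest falls among genes with separated groups included several enzymes that act on small molecules. Ces2c, a carboxylesterase that splits esters and amides, read 25211, 25768 and 18262 in PBO 1500 livers, against 878, 548 and 885 in control livers. Its change was 4.89 ± 0.20 (adjusted p = 2.71e-08), and the dosed livers lay close together. In a list of carboxylesterases and other esterases, it was the only one of 9 members tested that rose (11.1%), near the 9.7% of all genes. Several other genes of the Ces1 and Ces2 families were not tested. Of the list, 3 members fell (33.3%), against 10.2% of all genes. Among these, Aadac had a change of -1.43 ± 0.25 (adjusted p = 0.00203) and Ces1c of -0.52 ± 0.12 (adjusted p = 0.00981).

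Sulfotransferases, which add sulfate to drugs, steroids and bile acids, changed in both directions. The hydroxysteroid sulfotransferase Sult2a6 read 16404, 19885 and 7272 in PBO 1500 livers, against 650, 1184 and 784 in control livers (3.95 ± 0.38, adjusted p = 3.3e-05). Its relative Sult2a2 read 6030, 330 and 2129 in PBO 1500 livers, against 42.9, 35.9 and 39.4 in control livers. All dosed livers were above the controls but differed widely among themselves, and the change was 4.90 ± 1.16 (adjusted p = 0.0118), or 3.96 and 6.02 without dosed replicate 1 or 2. Near-identical family members can cross-hybridise, so the split between them is uncertain. Sult1c3 read 5861, 6250 and 2175 in PBO 1500 livers, against 22353, 21294 and 23439 in control livers (-2.37 ± 0.30, adjusted p = 0.000213). Papss2, which makes the sulfate donor, read 3300, 3186 and 3414 in PBO 1500 livers, against 7134, 7388 and 6406 in control livers (-1.07 ± 0.11, adjusted p = 3.57e-05). Of 15 sulfotransferases and helpers tested, 3 rose and 5 fell.

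Of 8 genes tested for glucuronidation, the attachment of a sugar acid, and for its sugar supply, 4 rose and 1 fell. No gene of the Ugt1a family was tested. Ugt2b1 read 26314, 33205 and 34874 in PBO 1500 livers, against 3172, 3148 and 5874 in control livers, without overlap (7.74-fold between mean signals, adjusted p = 1.37e-06). Ugt2a1 (1.74 ± 0.24, adjusted p = 0.000473) and Ugt2b10 (1.54 ± 0.22, adjusted p = 0.000569) also rose. Ugp2, which makes UDP-glucose for glucuronidation and for glycogen, fell by 1.30 on the log2 scale (adjusted p = 0.00204).

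Enzymes of aldehydes and ketones rose in 11 of 29 members and fell in 4. Akr7a3, an aldehyde reductase that clears aflatoxin dialdehyde, read 13095, 22744 and 24421 in PBO 1500 livers, against 3247, 3359 and 2938 in control livers (2.60 ± 0.27, adjusted p = 5.4e-05). The carbonyl reductase Cbr1 read 1563, 1370 and 2862 in PBO 1500 livers, against 439, 589 and 337 in control livers (2.01 ± 0.26, adjusted p = 0.000248). In both genes every dosed liver was above every control. The mitochondrial aldehyde dehydrogenase Aldh1b1 read 116, 92.0 and 83.6 in PBO 1500 livers, against 462, 1048 and 432 in control livers (-2.44 ± 0.36, adjusted p = 0.000691).

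Among oxidases outside the P450s, Fmo1, a flavin monooxygenase, read 521, 1853 and 124 in PBO 1500 livers, against 4358, 6249 and 4704 in control livers. No dosed liver reached a control, but the dosed signals spread widely, with a change of -3.28 ± 0.63 (adjusted p = 0.00339) and of -2.34 without dosed replicate 3 and -4.21 without replicate 2. The aldehyde oxidase Aox1 rose by 0.92 ± 0.16 (adjusted p = 0.00191). Por, the reductase that feeds electrons to every microsomal P450, read 6433, 4121 and 12410 in PBO 1500 livers, against 1353, 1682 and 1411 in control livers (2.21 ± 0.30, adjusted p = 0.000404).

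Further large changes fell outside drug metabolism. Cidea, a lipid droplet protein, read 6574, 8873 and 14506 in PBO 1500 livers, against 754, 523 and 361 in control livers (4.14 ± 0.30, adjusted p = 3.36e-06). Pfn2, an actin-binding profilin, read 1271, 1116 and 1527 in PBO 1500 livers, against 68.0, 46.6 and 56.8 in control livers (4.17 ± 0.23, adjusted p = 1.98e-07). Both were separated, and Pfn2 varied little within either group. Snx10, a sorting nexin of endosomes, read 1456, 860 and 2371 in PBO 1500 livers, against 98.3, 78.0 and 91.5 in control livers (3.79 ± 0.34, adjusted p = 1.62e-05).

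Of the largest falls, Tsc22d1, a leucine zipper regulator, read 1870, 2250 and 650 in PBO 1500 livers, against 11330, 15135 and 13010 in control livers (-3.21 ± 0.35, adjusted p = 7.13e-05). The arrestin-domain protein Arrdc3, an adaptor in receptor traffic, read 987, 1668 and 760 in PBO 1500 livers, against 7241, 8232 and 12509 in control livers (-3.05 ± 0.30, adjusted p = 3.58e-05). The alarmin Il33 read 455, 537 and 180 in PBO 1500 livers, against 3769, 2898 and 3141 in control livers (-3.14 ± 0.39, adjusted p = 0.000168). Dosed replicate 3 was the lowest of the 6 livers in all 3 genes. Popdc2 changed by -3.15 ± 0.48 (adjusted p = 0.000814) and Rprm by -3.13 ± 0.56 (adjusted p = 0.00221), from control signals under 1000, and Rprm by -2.27 without dosed replicate 3.

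**Figure D2:**
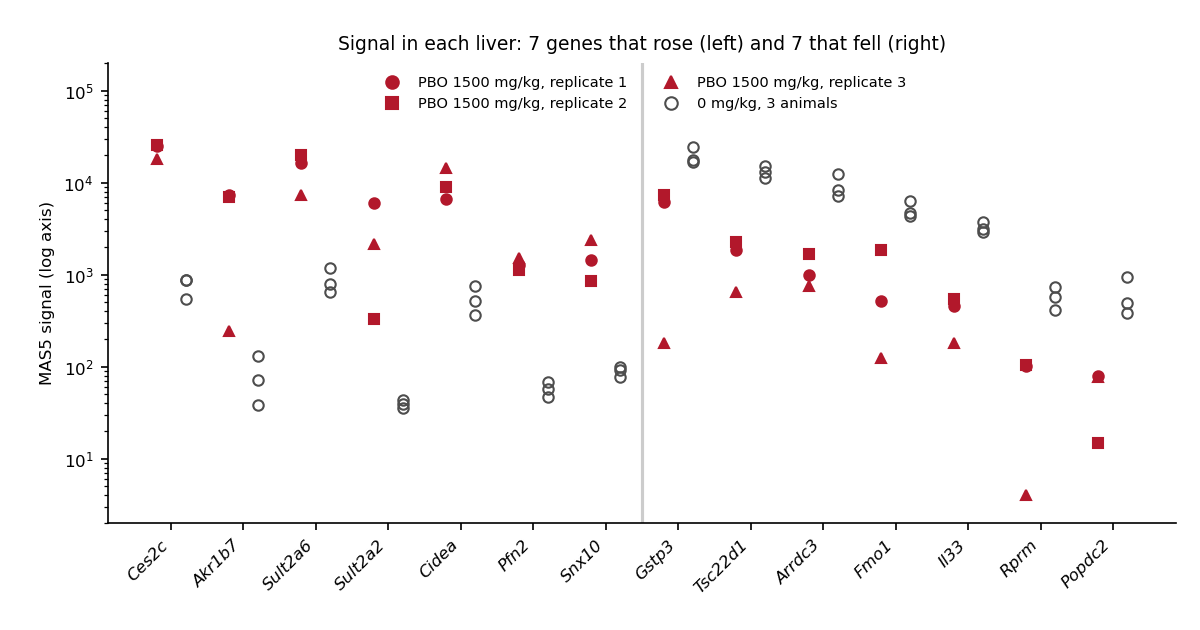
MAS5 signal on a log axis for 7 genes that rose and 7 that fell among the largest changes, in each liver. For each gene the 3 dosed animals stand left (red, triangle for replicate 3) and the 3 controls right (open circles). The triangle lies far from the other dosed livers in Akr1b7, Gstp3 and Rprm, and with them in Ces2c and Pfn2.

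Carriers that bring compounds into hepatocytes changed in both directions. Of 16 uptake carriers tested, 4 rose and 7 fell. Slc22a8, an organic anion carrier, read 691, 922 and 983 in PBO 1500 livers, against 6781, 8089 and 6702 in control livers (-3.04 ± 0.24, adjusted p = 7.14e-06). Slc10a1, which takes up bile salts from portal blood, read 13126, 16446 and 10473 in PBO 1500 livers, against 27003, 27117 and 26239 in control livers (-1.03 ± 0.13, adjusted p = 0.000262). Slco1a4, which takes up a wide range of anionic drugs, read 23630, 21998 and 27992 in PBO 1500 livers, against 12556, 11407 and 12375 in control livers (1.01 ± 0.11, adjusted p = 8.98e-05). The groups were separated in each of these genes.

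Of 21 genes tested in the list of ABC exporters, which also holds the flippase Atp8b1, 5 rose and 4 fell. Abcb1a, the multidrug P-glycoprotein, read 670, 599 and 1942 in PBO 1500 livers, against 158, 208 and 141 in control livers (2.36 ± 0.35, adjusted p = 0.000611). Abcb6, a porphyrin transporter, changed by 1.74 ± 0.18 (adjusted p = 4.48e-05), and the canalicular conjugate pump Abcc2 by 1.02 ± 0.18 (adjusted p = 0.00246). Abca8a read 936, 1126 and 440 in PBO 1500 livers, against 4609, 4457 and 4315 in control livers, well apart (-2.50 ± 0.25, adjusted p = 3.58e-05). The call for Atp8b1, a phospholipid flippase that fell by 0.52 on the log2 scale (adjusted p = 0.0495), was lost without dosed replicate 2 or 3 or without control replicate 1, 2 or 3.

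Of the genes for sensors of foreign compounds and their partners, 4 did not pass the threshold. Nr1i2 (PXR) changed by 0.15 (adjusted p = 0.536), Nr1i3 (CAR) by -0.17 (adjusted p = 0.598), Nfe2l2 (NRF2) by -0.21 (adjusted p = 0.544) and its inhibitor Keap1 by 0.11 (adjusted p = 0.655). Of 31 nuclear receptors and partners, 2 rose (6.45%) and 6 fell (19.4%), and 2 rose and 4 fell without dosed replicate 3. The glucocorticoid receptor Nr3c1 read 1191, 1328 and 820 in PBO 1500 livers, against 2889, 3570 and 2906 in control livers (-1.50 ± 0.17, adjusted p = 7.33e-05). Hnf4a, a master regulator of hepatocyte genes, fell by 0.59 on the log2 scale (adjusted p = 0.0106). Ahr, the aryl hydrocarbon receptor, rose by 1.49 ± 0.42 (adjusted p = 0.0265), but this call was lost without dosed replicate 3 (adjusted p = 0.067), without dosed replicate 1 and without control replicate 2 or 3.

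In the growth hormone and IGF axis, which sets male body growth and the male pattern of liver genes, 9 of 27 members fell and none rose, with a median of -0.42. Igfbp3, a carrier of IGF1, read 700, 400 and 180 in PBO 1500 livers, against 3276, 2032 and 2468 in control livers (-2.72 ± 0.35, adjusted p = 0.000259). The growth hormone receptor Ghr read 3115, 4641 and 895 in PBO 1500 livers, against 10106, 10446 and 11591 in control livers (-2.18 ± 0.41, adjusted p = 0.00296), a change of -1.49 without dosed replicate 3. Igf1 itself read 15601, 18581 and 6244 in PBO 1500 livers, against 29370, 32963 and 36522 in control livers (-1.43 ± 0.29, adjusted p = 0.00533). In all 3 genes replicate 3 was the lowest liver, and the other dosed livers were below the controls as well. The urinary protein Mup5 fell in a narrow range, 3885 to 4043 in PBO 1500 livers, against 8388 to 9244 in control livers (-1.16 ± 0.13, adjusted p = 7.47e-05). The female-typical Cyp2c12 (1.41, adjusted p = 0.112) and Igfbp2 (1.17, adjusted p = 0.0984), both of this list, did not pass the threshold.

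Complement and coagulation factors are made in the liver and secreted into plasma. Of 36 tested, 19 fell and 1 rose, with a median of -0.60. The medians were -0.40, -0.27 and -1.16 in dosed replicates 1, 2 and 3. Without replicate 3, 18 fell and 2 rose, and the median was -0.33. C8g, a subunit of the membrane attack complex, read 9672, 11632 and 10238 in PBO 1500 livers, against 22129, 21043 and 25994 in control livers (-1.13 ± 0.11, adjusted p = 3.58e-05). The dosed livers were close together here, with replicate 3 between the others. Protein S, Pros1, an anticoagulant cofactor, was the member that rose (0.53 ± 0.10, adjusted p = 0.00304).

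Plasma carriers and acute phase proteins fell in 14 of 34 members and rose in none. Afm, a vitamin E carrier, changed by -1.19 ± 0.14 (adjusted p = 0.000156) and the pentraxin Apcs by -1.37 ± 0.19 (adjusted p = 0.000483). Albumin did not pass the threshold (0.06 ± 0.15, adjusted p = 0.839).

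Apolipoproteins and lipid transfer proteins fell in 10 of 25 members and rose in none, with a median of -0.66. Apoa5, which lowers plasma triglyceride, read 6766, 8586 and 8462 in PBO 1500 livers, against 17417, 16294 and 20455 in control livers (-1.19 ± 0.12, adjusted p = 4.48e-05). Hepatic lipase Lipc read 6121, 6535 and 2632 in PBO 1500 livers, against 17494, 16517 and 21352 in control livers (-1.95 ± 0.26, adjusted p = 0.0003). Both were separated, and replicate 3 stood low in Lipc but not in Apoa5. Fabp5, a fatty acid binding protein, read 1202, 656 and 558 in PBO 1500 livers, against 4120, 4141 and 4485 in control livers (-2.46 ± 0.24, adjusted p = 3.58e-05).

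**Figure D3:**
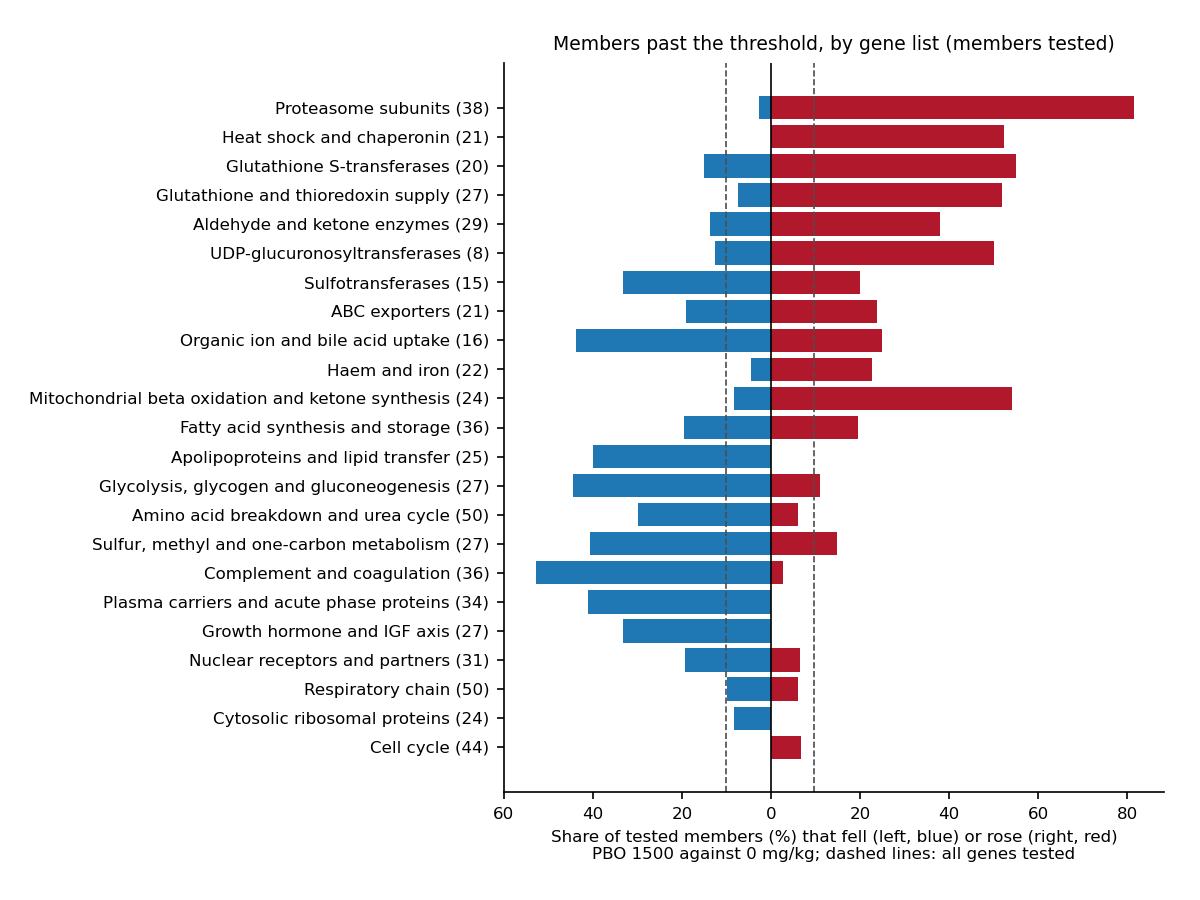
Share of the tested members of 23 gene lists that rose (red, right) or fell (blue, left) at 1500 against 0 mg/kg, with the number tested in brackets. The dashed lines give the shares over all genes tested, 9.7% higher and 10.2% lower. Proteasome subunits reach 81.6% higher, and complement and coagulation 52.8% lower.

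Fuel metabolism moved in opposite directions by pathway. Mitochondrial beta oxidation and ketone synthesis rose in 13 of 24 members and fell in 2, and in 12 and 3 without dosed replicate 3. The median was 0.59 with all animals and 0.34 without dosed replicate 3, with medians of 0.50, 0.29 and 0.97 in dosed replicates 1, 2 and 3. Hadhb, a subunit of the trifunctional protein, read 17057, 16837 and 18275 in PBO 1500 livers, against 8058, 8699 and 8434 in control livers (1.05 ± 0.09, adjusted p = 1.79e-05). Eci1, an isomerase for unsaturated fatty acids, read 18714, 14450 and 26568 in PBO 1500 livers, against 6037, 5508 and 5536 in control livers (1.76 ± 0.20, adjusted p = 9.12e-05). Both were without overlap. The list of peroxisomal oxidation and omega hydroxylation, which also holds fatty acid binding proteins, rose in 12 of 36 members and fell in 3. The falls were those of the P450s Cyp4f1 and Cyp4f6 and of Acox3. The peroxisomal enzyme Ehhadh read 25584, 13497 and 19169 in PBO 1500 livers, against 5685, 3717 and 5094 in control livers (1.98 ± 0.23, adjusted p = 9.85e-05).

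Glycolysis, glycogen and gluconeogenesis fell in 12 of 27 members and rose in 3. Liver pyruvate kinase Pklr read 1153, 1561 and 250 in PBO 1500 livers, against 4273, 4569 and 5150 in control livers. Its change was -2.57 ± 0.46 (adjusted p = 0.00229), and -1.78 without dosed replicate 3. Aldoa, the aldolase typical of muscle, read 5008, 4110 and 6593 in PBO 1500 livers, against 2105, 2167 and 1876 in control livers (1.32 ± 0.15, adjusted p = 7.04e-05). In lipid synthesis and storage 7 of 36 members rose and 7 fell. Lpl, the lipase of blood vessels that is low in adult liver, read 1852, 686 and 2139 in PBO 1500 livers, against 311, 270 and 273 in control livers (2.24 ± 0.37, adjusted p = 0.00138). The lipogenic factor Srebf1 changed by -2.28 ± 0.32 (adjusted p = 0.000493).

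Amino acid breakdown and the urea cycle fell in 15 of 50 members and rose in 3. Kynu, of tryptophan breakdown, read 5079, 5045 and 4481 in PBO 1500 livers, against 12035, 12474 and 14285 in control livers (-1.40 ± 0.10, adjusted p = 2.75e-06). Prodh, the first enzyme of proline breakdown, read 621, 1043 and 188 in PBO 1500 livers, against 4083, 3351 and 3368 in control livers (-2.80 ± 0.42, adjusted p = 0.000671; -2.13 without dosed replicate 3). Cps1, the entry enzyme of the urea cycle, changed by -0.78 ± 0.12 (adjusted p = 0.000751).

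Sulfur, methyl and one-carbon metabolism fell in 11 of 27 members, while enzymes that build serine and asparagine were among the 4 that rose. Phgdh, the first step of serine synthesis, read 742, 1009 and 1614 in PBO 1500 livers, against 116, 36.6 and 63.2 in control livers (3.72 ± 0.49, adjusted p = 0.000288). Psat1, the next step, read 646, 728 and 1608 in PBO 1500 livers, against 210, 123 and 150 in control livers (2.42 ± 0.31, adjusted p = 0.000221). Asparagine synthetase Asns read 306, 495 and 942 in PBO 1500 livers, against 81.8, 123 and 153 in control livers (2.03 ± 0.42, adjusted p = 0.00528). All 3 genes had their highest signal in dosed replicate 3, with both other dosed livers above every control. Trib3, a stress gene listed with the endoplasmic reticulum, followed with 765, 914 and 2201 in PBO 1500 livers, against 234, 299 and 132 in control livers (2.37 ± 0.45, adjusted p = 0.00325).

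The methyl-consuming enzyme Gnmt read 5103, 5172 and 1871 in PBO 1500 livers, against 20031, 21159 and 19619 in control livers (-2.46 ± 0.30, adjusted p = 0.000149). Bhmt, which remethylates homocysteine, changed by -1.12 ± 0.13 (adjusted p = 8.31e-05), and Pemt, which methylates phospholipid, by -0.90 ± 0.12 (adjusted p = 0.000311). The call for Mthfd1, the fourth member that rose (0.53, adjusted p = 0.042), was lost without dosed replicate 1 or 3 and without each control in turn.

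Haem and iron genes rose in 5 of 22 members and fell in 1. Heme oxygenase Hmox1, which opens haem, read 2850, 3124 and 2748 in PBO 1500 livers, against 805, 713 and 672 in control livers (1.97 ± 0.33, adjusted p = 0.0014). Blvrb, which reduces biliverdin formed from haem, read 8726, 8251 and 7832 in PBO 1500 livers, against 2742, 2352 and 2437 in control livers (1.72 ± 0.17, adjusted p = 3.58e-05). The rate-limiting synthetic enzyme Alas1 changed by 1.88 ± 0.35 (adjusted p = 0.00309), so that genes of both synthesis and breakdown rose. The transferrin receptor Tfrc read 9302, 10168 and 12013 in PBO 1500 livers, against 3660, 4778 and 2431 in control livers (1.58 ± 0.27, adjusted p = 0.00164). Hamp, the iron hormone hepcidin, read 4496, 5060 and 1413 in PBO 1500 livers, against 12405, 9460 and 16324 in control livers. Its change was -1.96 ± 0.51 (adjusted p = 0.02), and the call was lost without control replicate 1 or 3 (adjusted p = 0.0578 and 0.0784).

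Of 50 respiratory chain subunits 3 rose (6%) and 5 fell (10%), and of 24 ribosomal proteins none rose and 2 fell (8.33%), against 9.7% higher and 10.2% lower over all genes. In the cell cycle list 3 of 44 members rose (6.82%) and none fell, and 2 rose and 1 fell without dosed replicate 3. The shares that fell in the first 2 lists were near the background and are no result about their members. Tk1, which salvages thymidine for DNA synthesis, read 1513, 1206 and 2052 in PBO 1500 livers, against 393, 521 and 442 in control livers (1.75 ± 0.18, adjusted p = 5.15e-05). The proliferation marker Mki67 changed by 0.08 and did not pass. Cyclin D1, Ccnd1, read 1462, 374 and 8798 in PBO 1500 livers, against 1327, 835 and 1591 in control livers, overlapping (0.49 ± 0.81, adjusted p = 0.731). Mdm2, the p53-induced ubiquitin ligase, rose by 1.02 ± 0.15 (adjusted p = 0.000731), while the p53 target Cdkn1a changed by -0.03 and did not pass.

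Genes that mark zones of the liver lobule changed in part. Of 23 periportal genes 8 fell and none rose, and of 19 pericentral genes 6 fell and 3 rose, against 10.2% lower and 9.7% higher over all genes. Without dosed replicate 3, 11 periportal genes fell, and of the pericentral genes 8 fell and 2 rose. Gulo, which makes vitamin C in rats, read 5784, 5712 and 4524 in PBO 1500 livers, against 14675, 16100 and 16946 in control livers (-1.58 ± 0.12, adjusted p = 3.95e-06). Oat, a pericentral aminotransferase, read 1407, 1106 and 8409 in PBO 1500 livers, against 10736, 9809 and 12849 in control livers (-2.22 ± 0.57, adjusted p = 0.0185). In this gene replicate 3 was the dosed liver nearest to the controls, and the change was -3.13 without it. The call was lost without dosed replicate 1 or 2 or control replicate 1 or 3, with adjusted p between 0.0525 and 0.0649. Glul, the glutamine synthetase of the innermost pericentral cells, changed by -0.27 and did not pass (adjusted p = 0.11).

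Markers of other cell types moved with these changes, and their part in the results above was not tested. In whole liver, fewer cells of a type and less RNA per cell cannot be told apart. The 13 Kupffer cell and macrophage markers tested had medians of -0.20, -0.85 and -2.54 in dosed replicates 1, 2 and 3. Against 10.2% lower and 9.7% higher over all genes, 4 of these markers fell (30.8%) and none rose. Without dosed replicate 3, 3 of them fell. Their summed signal was 6504 to 29083 in PBO 1500 livers and 29191 to 31402 in control livers. C1qa, a complement gene of Kupffer cells, read 2326, 1402 and 339 in PBO 1500 livers, against 4030, 3665 and 3935 in control livers (-1.88 ± 0.50, adjusted p = 0.0203). The lectin Clec4f of Kupffer cells read 3236, 1946 and 730 in PBO 1500 livers, against 5720, 4438 and 5298 in control livers (-1.61 ± 0.39, adjusted p = 0.0132). Replicate 3 was the lowest in both, and the changes were -1.09 in C1qa and -1.02 in Clec4f without it. Leaving out any 1 control ended the call for C1qa (adjusted p = 0.0515 to 0.0619), and leaving out control replicate 1 ended it for Clec4f (adjusted p = 0.0501).

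Of 8 T and NK cell markers 4 fell, and the summed signal was 729 to 1083 in PBO 1500 livers and 1600 to 1900 in control livers. Cd3d, Cd3e, Cd3g and Cd8a lay below the filter on low signal. Of 20 stellate cell and fibroblast markers 8 fell (40%) and 1 rose (5%), against 10.2% lower and 9.7% higher over all genes. Without dosed replicate 3, 8 fell and 3 rose, and their median was -0.14 in place of -0.45. Their medians were 0.02, -0.33 and -0.64 in dosed replicates 1, 2 and 3. Their summed signal was 14723 to 25630 in PBO 1500 livers and 34417 to 43101 in control livers. Erythroid markers fell in 3 of 4, with Hbb at 6930, 4108 and 9702 in PBO 1500 livers, against 21080, 20620 and 22059 in control livers (-1.70 ± 0.23, adjusted p = 0.000374). Of 12 sinusoidal endothelial markers 2 fell (16.7%), not far from the 10.2% of all genes, and 1 fell without dosed replicate 3. The VEGF receptor Kdr was among the 2 (-0.85 ± 0.10, adjusted p = 0.000161).

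Cholangiocyte markers, of the bile duct lining, rose in 3 of 7 (42.9%), against 9.7% of all genes, and in 2 without dosed replicate 3. Their medians were 0.46, 0.53 and 0.28 in dosed replicates 1, 2 and 3. Their summed signal was 5178 to 6047 in PBO 1500 livers and 2184 to 2608 in control livers, with Epcam a large part of it. The adhesion molecule Epcam read 3803, 3038 and 3696 in PBO 1500 livers, against 840, 786 and 846 in control livers, without overlap (2.06 ± 0.13, adjusted p = 7.79e-07). Krt19, the keratin that defines these ducts, read 230, 168 and 102 in PBO 1500 livers, against 209, 153 and 250 in control livers, overlapping and not past the threshold (-0.31, adjusted p = 0.536). Krt8, the keratin that hepatocytes share with ducts, read 12599, 11946 and 20091 in PBO 1500 livers, against 5146, 4611 and 4065 in control livers (1.65 ± 0.17, adjusted p = 4.51e-05). Krt19 and Krt8 were chosen after their values were seen.

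**Figure D4:**
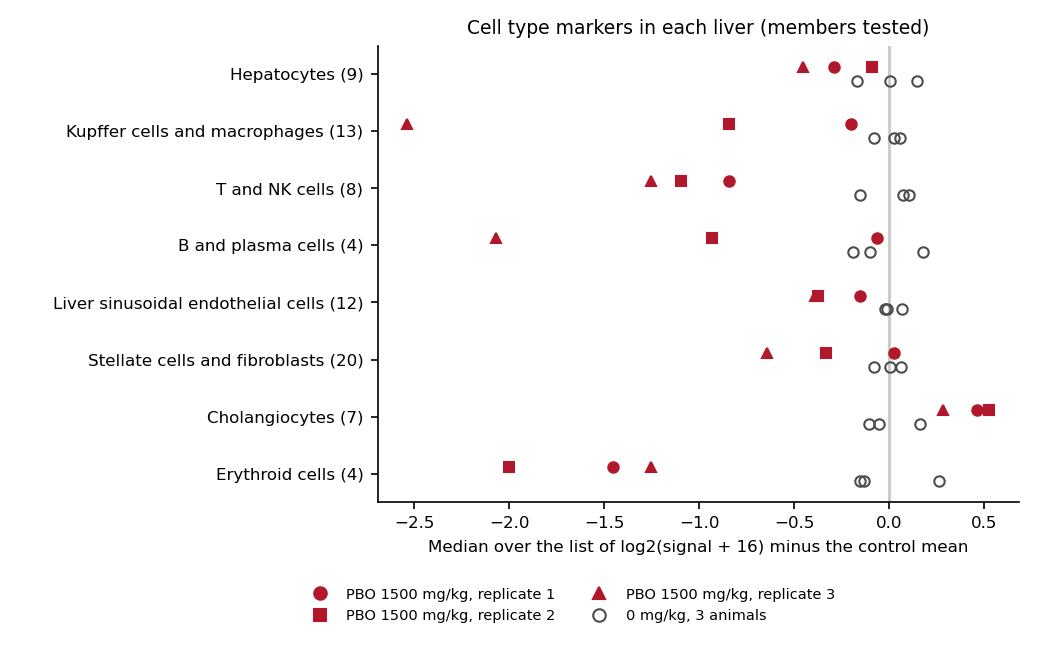
Median over each list of cell type markers of log2(signal + 16) minus the control mean, for each animal at 1500 mg/kg (red, triangle for replicate 3) above each control (open circles), with the number of members tested in brackets. Kupffer cell and macrophage markers spread from -0.20 to -2.54 among the dosed animals, and cholangiocyte markers lie right of the controls.

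Leaving out dosed replicate 3 left 2084 of 10599 genes past the threshold (19.7%). Of the 2119 genes called with all animals, 1725 were still called, 390 were no longer called, 4 were not tested and none turned direction. The change moved by over 1.5-fold for 67 of them (3.16%), against 17 and 18 when dosed replicate 1 or 2 was left out. Without 1 control, 1338 to 1423 were still called and 2 or 3 moved that far. More calls were thus lost without 1 control, and more changes were altered in size without dosed replicate 3.

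Akr1b7, an aldo-keto reductase that reduces lipid aldehydes, read 7400, 6934 and 244 in PBO 1500 livers, against 71.0, 38.6 and 130 in control livers. Replicate 3 lay much nearer to the controls than the other dosed livers, and the change of 4.75 ± 1.25 (adjusted p = 0.0206) was 6.34 without it (adjusted p = 0.000633). The call was lost without dosed replicate 1 or 2 or control replicate 1 or 2 (adjusted p = 0.0661, 0.0635, 0.0596 and 0.071). Gadd45b, a stress-inducible regulator of growth arrest, read 262, 139 and 5497 in PBO 1500 livers, against 20.4, 54.5 and 109 in control livers. Replicate 3 was far above all other livers, and the change of 3.18 ± 1.01 (adjusted p = 0.0472) was 1.60 without it, no longer past the threshold (adjusted p = 0.0821). That call also ended without any 1 control (adjusted p = 0.0663 to 0.153).

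Gstp3, a glutathione S-transferase of the pi class, read 6113, 7354 and 181 in PBO 1500 livers, against 16742, 17502 and 24375 in control livers. Replicate 3 was far below every other liver, and the change of -3.22 ± 0.97 (adjusted p = 0.037) was -1.52 without it (adjusted p = 0.000146). Regucalcin, Rgn, a calcium-binding protein that also acts in vitamin C synthesis, read 9168, 9551 and 371 in PBO 1500 livers, against 24424, 26505 and 28355 in control livers. Its change of -3.03 ± 0.86 (adjusted p = 0.0299) was -1.49 without replicate 3 (adjusted p = 2.85e-06). Ppp1r3b, which directs glycogen synthesis in liver, read 1507, 2170 and 67.1 in PBO 1500 livers, against 4531, 6222 and 4027 in control livers. Its change of -2.90 ± 0.90 (adjusted p = 0.0428) was -1.41 without replicate 3 (adjusted p = 0.0215). In these 3 genes the fall thus remained past the threshold, at a smaller size, in the other dosed livers. The calls with all dosed animals were lost for all 3 when any 1 control was left out, with adjusted p between 0.0726 and 0.116.

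**Figure D5:**
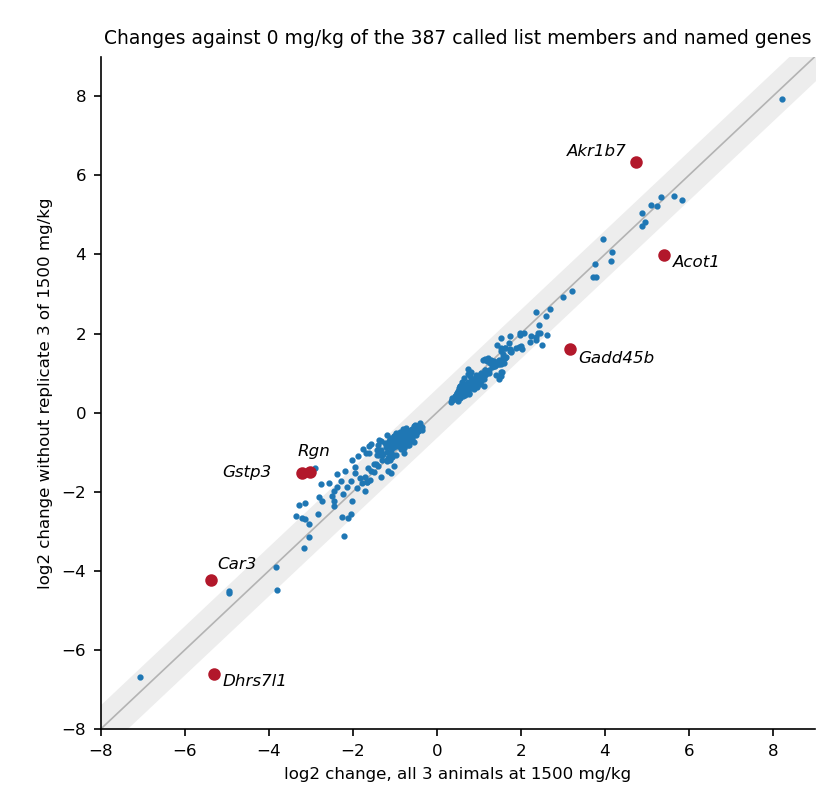
Change against 0 mg/kg with all 3 dosed animals (horizontal, log2) and without dosed replicate 3 (vertical, log2) for the 387 list members and named genes past the threshold. The grey band covers moves of up to 1.5-fold, and 33 genes lie outside it, among them the labelled Akr1b7, Gadd45b, Gstp3 and Rgn.

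The step between the 2 highest doses was tested in the same fit. Of 10670 genes, 156 differed between 1500 and 1000 mg/kg (1.46%), 84 higher (0.787%) and 72 lower (0.675%). Without dosed replicate 3 there were 213 of 10599 (2.01%), 93 higher (0.877%) and 120 lower (1.13%). Comparisons of 1500 and 1000 mg/kg with 0 mg/kg share the control livers, so their values are only given side by side.

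The largest steps included iron and lipid genes. Hamp read 4496, 5060 and 1413 at 1500 mg/kg, against 24568, 18516 and 28041 at 1000 mg/kg, without overlap. The difference was -2.87 ± 0.51 (adjusted p = 0.0234), and -2.29 without dosed replicate 3 (adjusted p = 0.0226). Its change at 1000 against 0 mg/kg was 0.91 and did not pass the threshold (adjusted p = 0.426). Tfrc read 9302, 10168 and 12013 at 1500 mg/kg, against 3444, 3144 and 2166 at 1000 mg/kg (1.86 ± 0.27, adjusted p = 0.00937). Its change at 1000 against 0 mg/kg was -0.28 (adjusted p = 0.675). Hmox1 differed by 1.58 between the doses (adjusted p = 0.0389), with 0.39 at 1000 against 0 mg/kg (adjusted p = 0.62).

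Apoa5 read 6766, 8586 and 8462 at 1500 mg/kg, against 16018, 15638 and 16742 at 1000 mg/kg (-1.03 ± 0.12, adjusted p = 0.00342). Lipc differed by -1.40 ± 0.26 (adjusted p = 0.0254), Sult1c3 by -2.01 ± 0.30 (adjusted p = 0.00937) and Arrdc3 by -2.06 ± 0.30 (adjusted p = 0.00937). Epcam read 3803, 3038 and 3696 at 1500 mg/kg, against 1714, 1395 and 1445 at 1000 mg/kg (1.20 ± 0.13, adjusted p = 0.00207), and had already passed at 1000 against 0 mg/kg (0.86, adjusted p = 0.00299). Pfn2 differed by 1.77 ± 0.23 (adjusted p = 0.0069) and changed by 2.40 at 1000 against 0 mg/kg (adjusted p = 8.34e-05). Others did not pass at the step, among them Ces2c (0.34, adjusted p = 0.403) and Ugt2b1 (-0.14, adjusted p = 0.762). The step for Snx10, 1.66 (adjusted p = 0.0352), was lost without dosed replicate 3 (adjusted p = 0.0536).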

How the data were processed

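The deposited values are linear probe set intensity signals in 1 table. The submitters' processing notes name MAS5, with no version in the sources used here. Per the labels' protocols, livers were kept in RNAlater, RNA was extracted with RNeasy kits and labelled with biotin by in vitro transcription. The mean after trimming 2% at each end was 500.26 to 500.28 on the 6 arrays, and medians were 94.3 to 106 at 1500 mg/kg and 107 to 114 at 0 mg/kg. The actin 3'/5' ratio, a measure of RNA quality, was 2.38 to 2.78 at 1500 mg/kg and 2.85 to 3.16 at 0 mg/kg; its part in the results was not tested. Arrays give no count-based depth, and 3 arrays per group limit the precision.

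Of the probe sets outside the controls, 20826 had 1 gene symbol in the platform annotation, 436 had several and 9780 none. Values were taken as log2(signal + 16) with no further normalization, and probe sets above the 40th percentile of mean log2 signal were kept. The 12 PBO arrays were fitted with limma 3.58.1 in R 4.3.3 (lmFit, then eBayes with trend by intensity). Benjamini-Hochberg adjustment covered all 18625 probe sets, and the threshold was 0.05. A gene stands by its tested probe set with the highest mean. Lists are described by counts and medians, with no test of a list.

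The members of the 49 lists, with 1183 genes, and the genes named were chosen with earlier results of these data known. Named genes were the 15 largest rises and 15 largest falls with separated groups, up to 4 called genes in each direction of each list described, smallest adjusted p first, 32 fixed genes, and the 5 whose change moved most without dosed replicate 3. Psmb5, Psmd1, Psmd3, Psmb8, Psmb10, Cyp2c12, Igfbp2, Krt8 and Krt19 were added after their values were seen. Of the fixed genes, Cyp2b1 and Cyp2b2 were not analysed here, 1 more is not reported here, and Ppara was below the filter. Promoter windows were read from a RefSeq table of GRCr8.

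In simulated data for the comparison of 1500 with 0 mg/kg on 18625 probe sets, 50 probe sets were changed at each size. Noise was normal, with a spread per probe set shared by all dose groups. The test recovered 12% of changes of 0.5 log2 units, 40% of 1, 78% of 2 and 94% of 3, with 8 false calls. The real data had 3228 calls and a wider spread at 1500 mg/kg, so these rates need not hold for them. Same-numbered dosed and control livers had deviations that correlated at 0.018, 0.004 and -0.039, so the numbers were not used as pairs. Alternatives were other pseudocounts (1 and 64), filters, normalizations, weights and fits, and each array left out in turn. The step from 1000 to 1500 mg/kg without dosed replicate 3 was added after the data were seen. Python 3.11.15 and matplotlib 3.10.9 were used.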

Additional observations from a re-analysis of the deposited data

How the results depend on the processing

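The count of 3228 probe sets past the threshold was within 1.5 times under other pseudocounts, filters, normalizations, array weights and eBayes without the trend, between 2681 and 3495. It was 1550 in a fit limited to the 6 arrays compared. It was higher, 2777, in that fit without dosed replicate 3, although fewer arrays were left. The reason for the lower count was not tested. Leaving out each of the 6 arrays in turn gave 2032 to 3321, the lowest without control replicate 3 and 2134 without control replicate 1; the cause was not tested. The share of called probe sets that were higher, 46.6%, ranged from 42.6% to 51.4% with 1 array left out. It was 63% with every array scaled to a common median (1951 higher and 1146 lower) and 51.6% with quantile normalization, so the balance of higher against lower calls depends on the scaling. With the replicate number as a block, 2994 probe sets were called and 47.1% were higher; the labels do not state that equal numbers mark a shared litter or day. Over 262 named genes and 17 alternatives, 4058 of 4436 results kept their side of the threshold, 368 lost the call and 10 gained it. Of the results called in the main or the alternative fit, 0 reversed direction. Direction was not counted where neither fit called the gene. Calls were lost most often with only the 6 arrays (58) and without a control (42 to 45), and 22 were lost without dosed replicate 3. Changes near 0.12 on the log2 scale, and genes with signals near 16, are not resolved.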

Other observations

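Values of some further lists are given here, beside 9.7% of all genes higher and 10.2% lower. Cholesterol synthesis and uptake rose in 6 of 22 members and fell in 1, and in 10 and 3 without dosed replicate 3. Sqle, which makes squalene epoxide, read 1894, 2065 and 1901 in PBO 1500 livers, against 615, 695 and 576 in control livers (1.61 ± 0.19, adjusted p = 0.000136 in limma's test), with no overlap. In bile acid synthesis and conjugation 4 of 16 members rose and 4 fell. Acot8, a peroxisomal thioesterase, changed by 1.39 ± 0.19 (adjusted p = 0.000429) and Baat, which conjugates bile acids, by -0.99 ± 0.21 (adjusted p = 0.00616). Cyp7a1, the rate-limiting enzyme of bile acid synthesis, read 2405, 1296 and 294 in PBO 1500 livers, against 1235, 4136 and 1261 in control livers, overlapping and not past the threshold (adjusted p = 0.45).

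Circadian clock genes rose in 2 of 16 members (12.5%), near the share over all genes, and fell in 4 (25%). Without dosed replicate 3, 1 rose and 4 fell. The repressor Cry1 read 426, 524 and 281 in PBO 1500 livers, against 964, 930 and 747 in control livers (-1.11 ± 0.23), and Nr1d2, which represses Bmal1, read 780, 605 and 1151 in PBO 1500 livers, against 275, 253 and 326 in control livers (1.48 ± 0.28, adjusted p = 0.00296). All dosed livers were on one side of the controls in both genes, and no label states the time of day of sampling. The growth factor receptor Egfr read 2068, 3500 and 2784 in PBO 1500 livers, against 6119, 8730 and 8421 in control livers (-1.49 ± 0.21, adjusted p = 0.000423). Thrsp, a lipogenic gene that answers to thyroid hormone, read 10276, 12328 and 1542 in PBO 1500 livers, against 13481, 20387 and 19836 in control livers. It did not pass the threshold with all animals (-1.60 ± 0.55, adjusted p = 0.0651) and passed, at a smaller size, without dosed replicate 3 (-0.64, adjusted p = 0.0125).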
